A study of Homo sapiens with 24 samples.

Results

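The MYC, MAX and MXD network was described here by the H3K4me3 of its promoters in a human beta cell line. Its 10 members (MYC, MYCN, MYCL, MAX, MXD1, MXI1, MXD3, MXD4, MNT and MGA) were chosen by name as the transcription factors that dimerize with MAX or, as MAX itself, serve as the partner. Each member was given every H3K4me3 region that overlapped 2 kb on either side of a start site of one of its protein-coding transcripts, and the region with the highest mean level was taken as its main region. All 10 members had such a region, among 14586 of the 19702 protein-coding genes examined (74.0%).

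The cells were EndoC-βH3, a human beta cell line of fetal pancreatic origin whose division depends on transgenes for hTERT and SV40 large T antigen, which a CreER recombinase in the same cells excises once 4-hydroxytamoxifen is added. The study compared untreated, non-senescent cells, which keep the transgenes, with cells that 3 weeks of 4-hydroxytamoxifen had made senescent, both listed as wild type. H3K4me3 was profiled by MINT-ChIP, in which chromatin of all samples is barcoded, pooled and then immunoprecipitated, in 4 non-senescent and 4 senescent samples of 500000 cells each. The value used here is the authors' mean normalized count of a region over the samples, which pools both states, so levels are given without a spread between replicates and no difference between the states was tested. The depth of each sample is unknown.

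MYC proteins bind DNA as dimers with MAX at E-box sequences and recruit coactivators to genes of growth and proliferation, while MXD proteins and MNT compete for MAX and bring SIN3 corepressors with histone deacetylases to the same sequences. MGA carries a T-box domain beside its helix-loop-helix and belongs to a variant polycomb complex with PCGF6, L3MBTL2 and E2F6. In beta cells MYC is known to drive division and, in excess, loss of identity and cell death, and H3K4me3 marks promoters that are active or poised for activity.

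RefSeq promoter windows of build GRCh38.p14, which reach from 250 bases before to 50 bases after a start, were matched for 9 members by symbol and gave 14 windows. The table of windows used here had no entry for MYC. The bases before the start are printed for MYCN, the member with the highest H3K4me3, for MXD4, the member with the lowest, for MNT, which shares an E-box with MXD4, and for MGA, which shares E2F-type letters with MYCN. Capitals mark the E-box CACGTG, the E2F-type letters TTTGGCGC and TTTCGCGC and the CCAAT box, each on either strand, and the sequences are written 5′ to 3′ along the gene. The MYCN stretch lies at chr2:15940300-15940549 on the plus strand and the MXD4 stretch at chr4:2262110-2262359 on the minus strand. The MNT stretch lies at chr17:2401061-2401310 on the minus strand and the MGA stretch at chr15:41660497-41660746 on the plus strand. The MGA stretch precedes the third RefSeq start of the gene, at 41660747. It lies downstream of the start of the canonical transcript, at 41660405.
MYCN: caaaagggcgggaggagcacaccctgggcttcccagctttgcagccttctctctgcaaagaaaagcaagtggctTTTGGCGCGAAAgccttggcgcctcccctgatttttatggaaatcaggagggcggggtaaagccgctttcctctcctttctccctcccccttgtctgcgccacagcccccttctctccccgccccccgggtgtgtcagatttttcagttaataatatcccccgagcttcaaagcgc
MXD4: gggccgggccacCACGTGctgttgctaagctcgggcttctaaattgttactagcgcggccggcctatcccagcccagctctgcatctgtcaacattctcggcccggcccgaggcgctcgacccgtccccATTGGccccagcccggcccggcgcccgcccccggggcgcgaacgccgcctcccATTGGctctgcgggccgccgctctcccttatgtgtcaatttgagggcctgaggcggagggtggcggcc
MNT: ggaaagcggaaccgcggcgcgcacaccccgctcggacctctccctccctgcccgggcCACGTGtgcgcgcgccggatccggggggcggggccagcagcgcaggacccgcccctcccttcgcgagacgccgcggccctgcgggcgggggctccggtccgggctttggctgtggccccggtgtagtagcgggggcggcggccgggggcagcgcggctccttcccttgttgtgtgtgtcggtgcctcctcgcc
MGA: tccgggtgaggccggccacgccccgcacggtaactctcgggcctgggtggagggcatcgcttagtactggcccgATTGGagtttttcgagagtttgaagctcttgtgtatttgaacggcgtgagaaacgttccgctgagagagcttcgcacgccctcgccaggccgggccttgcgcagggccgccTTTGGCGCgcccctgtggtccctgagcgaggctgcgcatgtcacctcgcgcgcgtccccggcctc

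CACGTG, the E-box that MYC-MAX and MXD-MAX dimers prefer, was found in the windows of 2 of the 9 members, MXD4 and MNT, starting 238 bases before the start in MXD4 and 193 bases before it in MNT. Among all 22198 windows of protein-coding genes outside chromosome 8, 8.34% held it, and 10.9% of the 15842 genes held it in at least 1 window. The 2 promoters with this E-box differed in H3K4me3, since the MNT start lay in a region of 67.0 mean normalized counts and the MXD4 start lay in no region. The general E-box CANNTG, which includes CACGTG, occurred in the windows of 8 members, all but MAX, and in those of 70.5% of all genes. Both MAX windows are set on RefSeq starts downstream of its canonical start (65102517), at 65102283 and 65101684. Within 500 bases of the start nearest the centre of its main region MAX had 2 CACGTG, and 3 in the whole main region. CACGCG was present in MXI1, MXD3 and MGA and in 18.1% of all genes, and CATGTG in MYCL and in 11.5% of all genes.

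E2F-type letters were rare among promoters as a whole. TTTGGCGC was found in 1.09% of all genes and in 2 of the 9 members, MYCN and MGA, 176 bases before the MYCN start and 65 bases before the third MGA start. In MYCN it overlapped TTTCGCGC, read on the other strand from 172 bases before the start, which 0.941% of all genes held. MYCN and MGA were also the members with the highest levels of H3K4me3, and whether these letters have a part in that was not tested. CCAAT was present in MXD1, MXD3, MXD4 and MGA (42.1% of all genes), GGGCGG in all 9 members (64.3% of all genes), and TATAAA in none of the 9 (12.4% of all genes).

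The label of the cells was checked against marker genes. Of 13 beta cell markers 12 had a promoter region, and 8 had a main region above the median of all promoters, 49.3 mean normalized counts. SLC30A8, the zinc transporter of insulin granules, reached 473 and the transcription factor NKX2-2 reached 372, whereas the hormone genes INS and IAPP had 24.7 and 6.94. The regions of SLC30A8 and NKX2-2 were 19456 and 14606 bp wide, and the median percentile of the beta cell markers was 93.4 by level and 64.9 by level per kb of region. MAFA had no region, although the study reports higher MAFA mRNA in the senescent cells. Since the depth of the samples is unknown, a missing region does not show that the mark is absent. Of 16 markers of alpha, delta, acinar, duct, immune, fibroblast and endothelial cells 11 had a region. Of these, 1 was above the median, the alpha cell factor IRX2 with 61.8. When the nearest region was taken for every gene, IRX2 was at percentile 35.8, below the median. PTPRC and CD3E of immune cells, COL3A1 of fibroblasts, CDH5 of endothelial cells and CELA3A of acinar cells had no region.

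Across the network the main regions ranged from 2.55 mean normalized counts at MXD4 to 279 at MYCN, with a median of 47.1 against 49.3 for all promoters (quartiles 21.6 and 88.6). MYCN, MGA, MXD1, MNT and MAX were above that median and MXI1, MYC, MXD3, MYCL and MXD4 below it, in this order, though the MXD1 value is that of a region at the starts of a neighbouring gene. A wide region collects more reads, so levels between genes were also taken per kb of region. On this scale 3 of the 10 members, MYCN with 36.8, MGA with 33.8 and MXI1 with 29.2 mean normalized counts per kb, lay above the median of all promoters (19.0). The members had 19 promoter regions in all, and 11 further regions lay elsewhere in their genes.

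**Figure D1:**
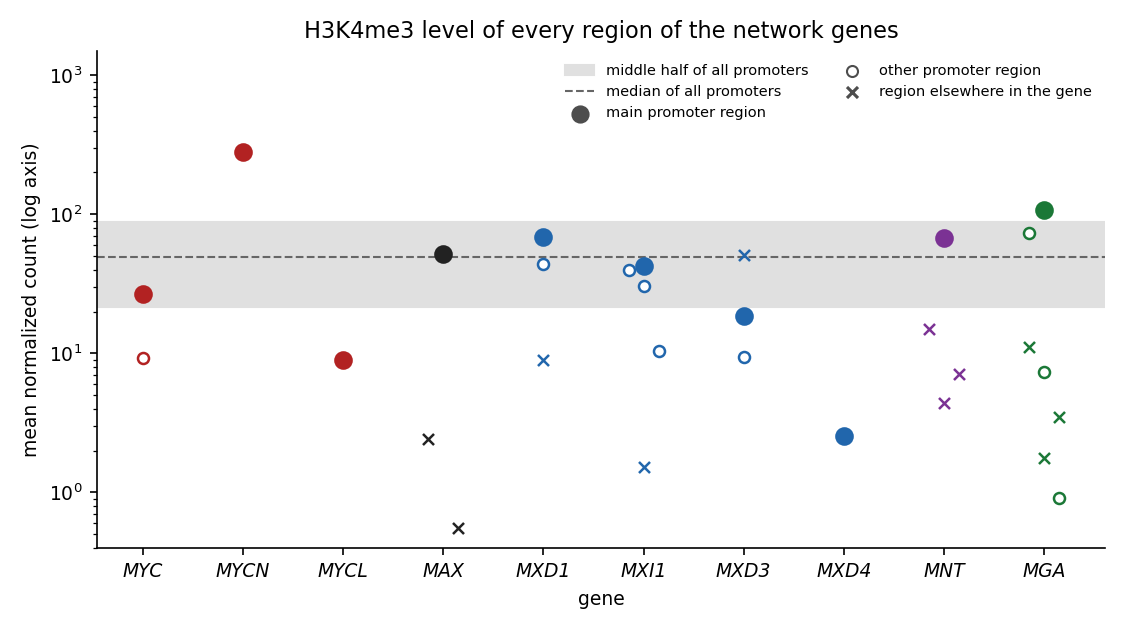
Mean normalized count of H3K4me3, on a log axis, for each of the 30 regions of the 10 network genes, with main promoter regions as filled circles, other promoter regions as open circles and regions elsewhere in the gene as crosses. The grey band spans the quartiles of all promoters (21.6 and 88.6) and the dashed line their median (49.3). MYCN (279) and MGA (107) lie above the band, and MXD3 (18.5), MYCL (8.89) and MXD4 (2.55) below it, and the filled circle of MXD1 is a region at the starts of SNRNP27.

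The activators differed widely. MYCN, the family member known from embryonic and neural tissue, had a single region of 279 mean normalized counts at chr2:15939001-15946590. It began 1549 bp upstream of the start, was 7589 bp wide and covered 93.5% of the 6458 bp gene, with 1549 bases of coding exon, 650 bases of untranslated exon and 3842 bases of intron. The level placed MYCN at percentile 99.1 of all promoters, the width at percentile 98.4 and the level per kb at percentile 92.0. Of all 14586 genes with a region 126 (0.864%) had a level at least as high, 235 (1.61%) a main region at least as wide, and 79 both. The region also holds start sites of the antisense transcript MYCNOS, and the mark of the 2 genes cannot be told apart there.

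MYC, the broadly expressed founder of the family, had a main region of 26.8 mean normalized counts at chr8:127734060-127737541, which reached from 2171 bp upstream to 1310 bp downstream of the canonical start. Of its 3481 bp, 1374 bases lay upstream of the gene, and 920 bases were coding exon, 511 untranslated exon and 677 intron. The region was wide for its level. MYC stood at percentile 73.3 of all promoters by width, at percentile 30.0 by level and at percentile 9.43 by level per kb (7.70). A second region at chr8:127737980-127739265, within the gene and 235 bp from its nearest start site, had 9.31, and it held a start of the noncoding gene CASC11. The main region of MYCN was 10.4 times as high as that of MYC in total and 4.78 times as high per kb.

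MYCL, the third activator, had a single narrow region of 8.89 mean normalized counts at chr1:39902208-39903044, 836 bp wide, at percentile 12.2 by level. It lay wholly upstream of the canonical start, 291 bp from it, and held 1 of the 3 coding start sites, the one 339 bp farther upstream, so that only 49 of its bases were exon and none coding. Per kb the order of the lower pair was the reverse of that by total level, with 10.6 at MYCL and 7.70 at MYC.

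MAX, the shared dimerization partner of the network, had a main region near the middle of all promoters, with 51.6 mean normalized counts at chr14:65100686-65104205 (percentile 51.9). All 9 of its coding start sites lay in this region, which extended 1688 bp upstream and 1831 bp downstream of the canonical start and overlapped 1591 bases of intron and 63 bases of coding exon. By width (3519 bp) MAX was at percentile 73.9, and per kb (14.7) at percentile 33.0. The 2 other regions in the gene, both intronic and 500 bp wide, had 2.42 and 0.554. In total level MAX was 1.93 times as high as MYC, over main regions of nearly the same width. MYCN was 5.40 times as high as MAX in total and 2.51 times as high per kb.

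**Figure D2:**
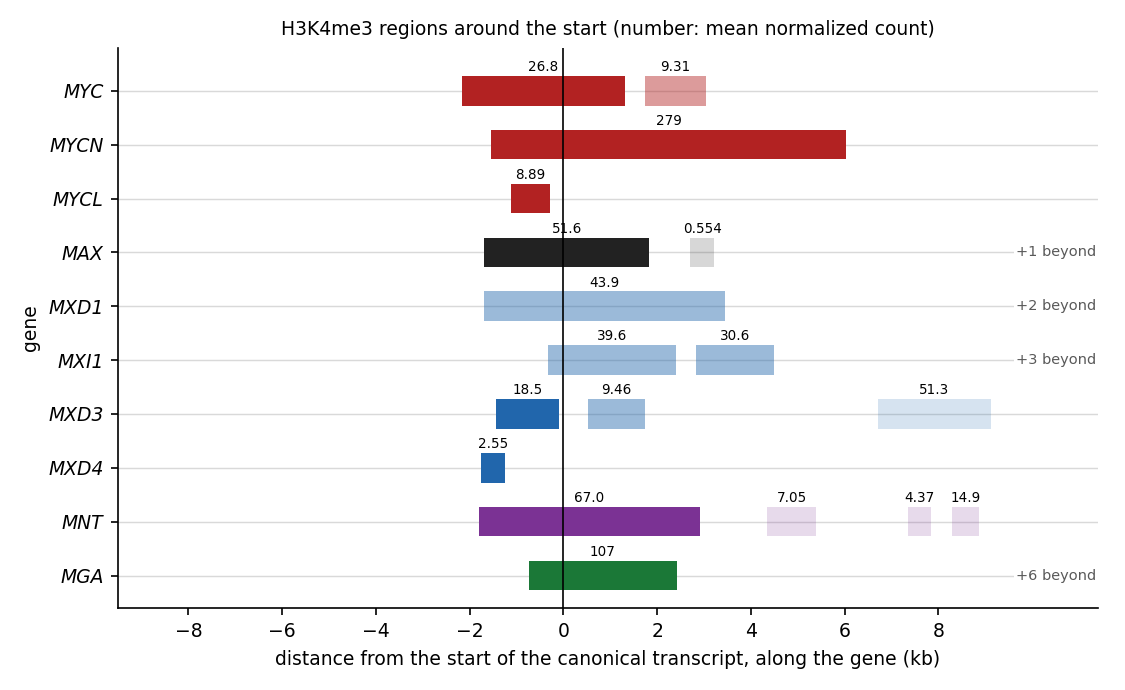
Position of H3K4me3 regions along each network gene, in kb from the start of the canonical transcript (0) in the direction of transcription, with the mean normalized count above each bar. Full colour marks the main region, medium shade other promoter regions and light shade regions elsewhere in the gene, and regions farther away are counted at the right. The start lies outside every region in MYCL, MXD3 and MXD4, and the single MYCN region covers most of its gene.

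Among the MXD antagonists, the value that the rule gave MXD1 belongs to a neighbour. The main region by level, 68.5 mean normalized counts at chr2:69892552-69896669, held no start of MXD1 and lay wholly outside the gene. It held the starts of SNRNP27, a splicing factor gene, and was linked to MXD1 only through a single transcript that starts 17421 bp upstream of the canonical one, 1019 bp from the region's edge. The region at the canonical MXD1 start, chr2:69913424-69918550, had 43.9 mean normalized counts over 5126 bp, or 8.56 per kb. It contained the 2 other start sites, with 4664 of its bases intronic. This value puts the promoter of MXD1 at percentile 45.5, below the median, where the linked region was at percentile 63.8. Among the 14586 genes with a region, 7.19% had a main region wholly outside their own gene and 23.2% shared their main region with another protein-coding gene.

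MXI1, an antagonist also known as MXD2, had 4 promoter regions in separate places, as many as MGA. The region with the highest level, 42.6 mean normalized counts at chr10:110225094-110226553, began 17489 bp downstream of the canonical start, overlapped 73 bases of coding exon and 218 of untranslated exon, and held 2 alternative start sites. The region at the canonical start, chr10:110207280-110210000, had a nearly equal level of 39.6, and a further one at chr10:110210442-110212106, all intron, had 30.6. The fourth, chr10:110227389-110228156, had 10.5 and held 5 start sites. Of the 26 coding start sites of MXI1, 17 lay in no region. Per kb the alternative promoter had 29.2 mean normalized counts and the canonical one 14.6, so the 2 differed more in density than in total. The main region held 34.6% of the summed level of 123, and by that sum MXI1 moved from percentile 44.4 to percentile 84.1 of genes with a region.

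MXD3, an antagonist known from proliferating cells, had 18.5 mean normalized counts in its main region at chr5:177311987-177313345 and 9.46 in another at chr5:177310158-177311371. The canonical start lay between them, 89 bp from the edge of the main region, and 4 of the 5 coding start sites lay in neither. The strongest region within the gene, 51.3 mean normalized counts at chr5:177302782-177305192, was intronic to MXD3 and held the starts of PRELID1 and RAB24. It was linked to no start of MXD3.

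MXD4, an antagonist described in differentiating cells, had the lowest value. Its only region, chr4:2263357-2263857, had 2.55 mean normalized counts, was 500 bp wide and lay 1248 bp upstream of its single start site, wholly outside the gene. Of all genes with a region, 384 (2.63%) had a level this low or lower. No region overlapped the MXD4 gene at any point. The depth of the samples is unknown, so this value does not show that the mark is absent there.

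MNT, the repressor of the network that is present in most cell types, had a main region of 67.0 mean normalized counts at chr17:2398150-2402869. It held both coding start sites, reached from 1809 bp upstream to 2910 bp downstream and contained 2490 bases of intron, 392 of untranslated exon and 73 of coding exon. MNT was at percentile 62.8 by level and, with 4719 bp, at percentile 88.9 by width, but at percentile 31.2 per kb (14.2). Of 3 further regions in its introns the strongest had 14.9. MNT was 1.30 times as high as MAX in total and 0.968 times as high per kb, so these 2 promoters lay close together in density.

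MGA had the second highest level and a pair of strong promoters far apart. Its main region, 107 mean normalized counts at chr15:41659666-41662827, surrounded the canonical start and was made up of 3033 bases of intron and 129 of untranslated exon. The upstream promoter at chr15:41620263-41623290 had 72.8 and held 2 start sites, the farther one 39271 bp before the canonical start. With 33.8 and 24.1 mean normalized counts per kb, both exceeded the median density of all promoters (19.0). Weak regions at chr15:41732391-41733026 with 7.40 and chr15:41733611-41734111 with 0.909 lay near a start site of a transcript deep in the gene, and 3 others in the gene reached at most 11.2. The TTTGGCGC letters printed above lie in the main region, downstream of the canonical start. No CACGTG lay in any of the 3 MGA windows, but the whole main region held 3.

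**Figure D3:**
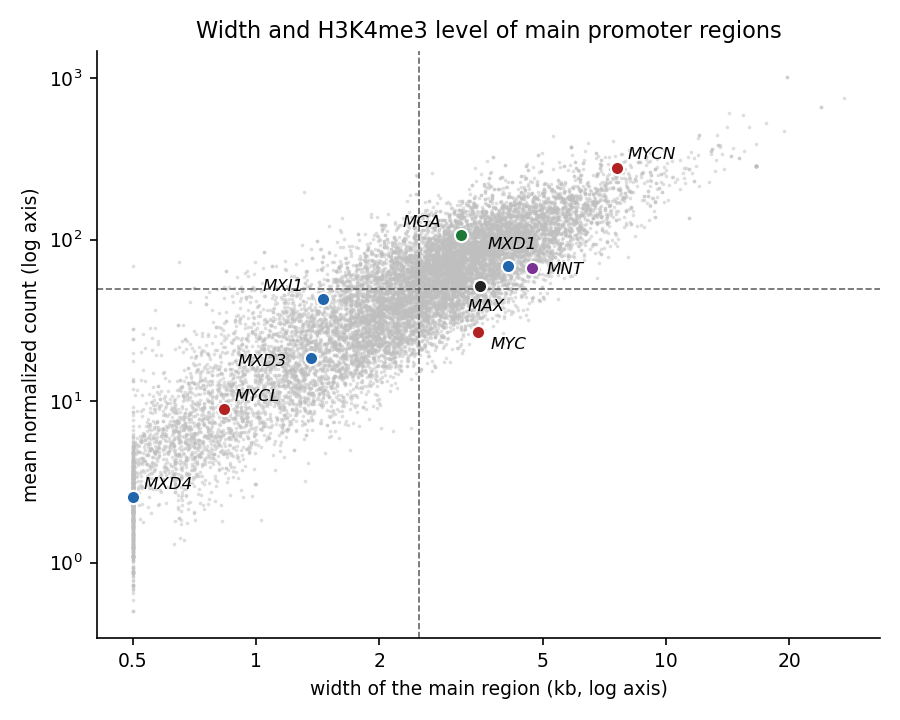
Width in kb and mean normalized count of the main region of 14586 protein-coding genes (grey) and of the 10 network genes (coloured), both on log axes, with the medians of all promoters as dashed lines (2498 bp and 49.3). MYCN lies at the upper right and MXD4 at the lower left among the many regions of exactly 500 bp, and MYC (3481 bp, 26.8) is right of the median width and below the median level.

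By width, 6 of the 10 members had a main region above the median of all promoters (2498 bp). Among them MYC was below the median level, as was MXD1 when taken by the region at its own start (5126 bp and 43.9 mean normalized counts). MXI1 stood apart in the other direction, at percentile 24.7 by width and percentile 80.8 per kb. Of the members 5 had at least 2 promoter regions, as did 37.1% of all genes with a region.

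The canonical start lay inside a region in 7 of the 10 members and in 53.1% of all 19702 genes examined (10469 genes). All 10 members had a promoter region, against 14586 of the genes examined, so the 2 shares do not have the same base. The exceptions among the members were MYCL, MXD3 and MXD4, with gaps of 291, 89 and 1248 bp. The RefSeq start of MXD3 used for the motif search is another one, at 177312752, and lies inside its main region. All 3 exceptions have a GC-rich canonical start. Within 1 kb on either side, GC content was 67.6% at MYCL, 65.6% at MXD3 and 73.7% at MXD4, the last at percentile 99.1 of 19009 starts outside chromosome 8. When all starts were split into 5 classes by GC content, 32.0% of those in the richest class lay inside a region and the median level of main regions was 27.9 mean normalized counts, against 70.5% and 56.9 in the middle class and 33.4% and 51.8 in the class poorest in GC. The share of starts in a region was thus low at both ends, while the median level was lowest in the class richest in GC. The 2 ends differed in the share of genes with a region within 2 kb of a coding start. This share was 83.0% in the richest class, 80.6% in the middle class and 45.8% in the poorest. MXD1 (63.6%) and MNT (66.2%) belong to the same GC-rich class and had their start in a region. The part of base composition in the low values of MYCL, MXD3 and MXD4 was not tested.

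Set against genes of the same GC class, MXD4 was at percentile 3.26, MYCL at 19.6 and MXD3 at 36.0, while MNT was at 80.1. MYCN, with 59.8% GC around its start, was at percentile 99.2 of its class and MGA, with 55.4%, at 80.5. The CpG content of the main regions, as observed over expected, was 0.951 at MXI1 and 0.270 at MXD4, against a median of 0.589 over all main regions. Within 1 kb of the MXD4 start, which lies outside that region, it was 0.892, against a median of 0.636 over all starts.

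**Figure D4:**
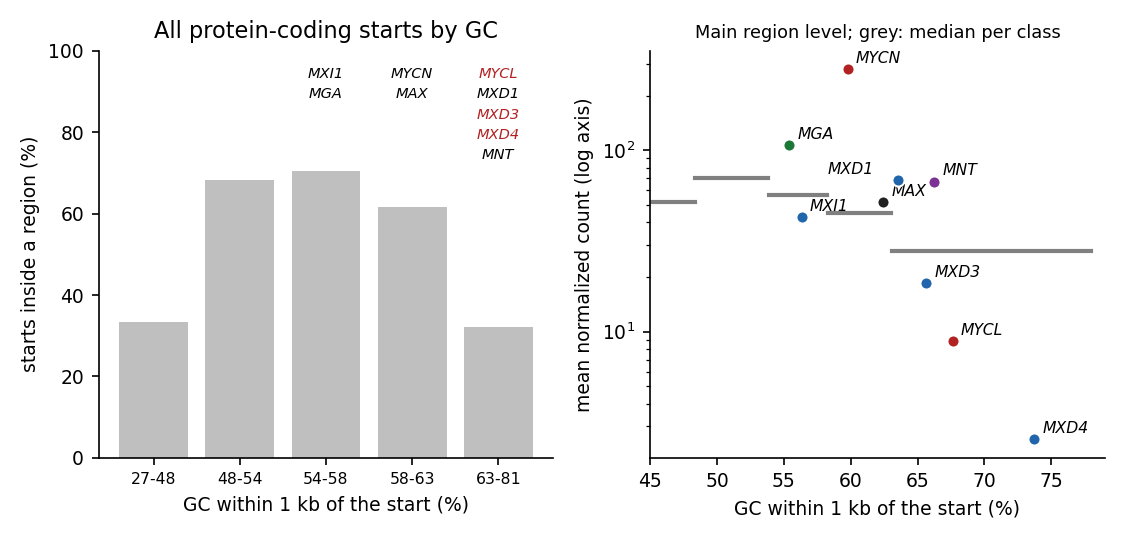
Left, percent of protein-coding starts that lie inside an H3K4me3 region, in 5 classes of GC content within 1 kb of the start, with the 9 network genes that have a value named above their class and those whose start lies in no region in red. Right, mean normalized count of the main region (log axis) of the same genes by GC content, with the median of each class in grey. The class richest in GC had 32.0% of starts in a region and holds MYCL, MXD3 and MXD4.

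Genes that work with the network were read from 8 lists with 58 genes, of which 56 had a promoter region. They are given as descriptions beside the members' own median percentile, 48.1 by level and 32.1 by level per kb, and values in parentheses are mean normalized counts. Genes of MYC turnover, the enzymes that set the stability of MYC proteins, had a median percentile of 78.9 over the 6 genes reported, all with a region, led by GSK3B with 332 and AURKA with 268 mean normalized counts, and with FBXW7 (58.9) and USP28 (47.5) at the low end. Per kb of region the median percentile of these 6 genes was 49.4. The corepressors of MXD and MNT, all 6 with a region, had a median percentile of 63.2, from HDAC1 (117) and HDAC2 (97.8) to SIN3B (30.2) and SUDS3 (22.2), and per kb it was 44.3, below the median of all promoters. Partners of MGA in its polycomb complex, all 8 with a region, had a median percentile of 58.1 by level and 74.0 per kb. With the nearest region of each gene it was 49.8. Among these partners RYBP (248) and CBX3 (161) were highest and PCGF6 (26.3) and E2F6 (16.8) lowest.

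The activator cofactors of MYC, all 10 with a region, had a median percentile of 37.2, and 1 of them was above the median of all promoters. RUVBL2 (64.5) and RUVBL1 (48.6), the helicases of chromatin remodelling complexes, were highest, and ZBTB17 (8.95) and the acetyltransferase KAT2A (8.16) lowest. ZBTB17, also known as MIZ1, is the partner with which MYC represses genes, so the name of the list does not describe it. The MLX branch, in which MLX pairs with some MXD proteins and MNT in place of MAX and which responds to glucose, was lower still in median, at percentile 24.1 over 3 genes that all had a region, with 38.0 mean normalized counts at MLXIPL, 20.8 at MLX and 11.1 at MLXIP. Its textbook targets, all 3 with a region, had a median percentile of 68.8. Their mean normalized counts were 96.1 at ARRDC4, 76.9 at TXNIP and 3.19 at PKLR. Other factors that bind E-boxes, 8 of 9 with a region, had a median percentile of 38.7 by level and 52.6 per kb, with USF1 (309) and SREBF1 (91.4) highest, TFAP4 (10.5) and USF2 (10.0) lowest, and TFEC without a region.

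Textbook MYC targets had a median percentile of 72.0. Of 13 genes 12 had a region and 10 lay above the median of all promoters, among them PTMA (341) and NCL (297). The lowest were ODC1 (26.97), which encodes the first enzyme of polyamine synthesis, and the glycolytic enzyme gene ENO1 (10.4), and CCND2 had no region. These values pool both states of the cells and say nothing of which MYC family protein, if any, acts at these genes.

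**Figure D5:**
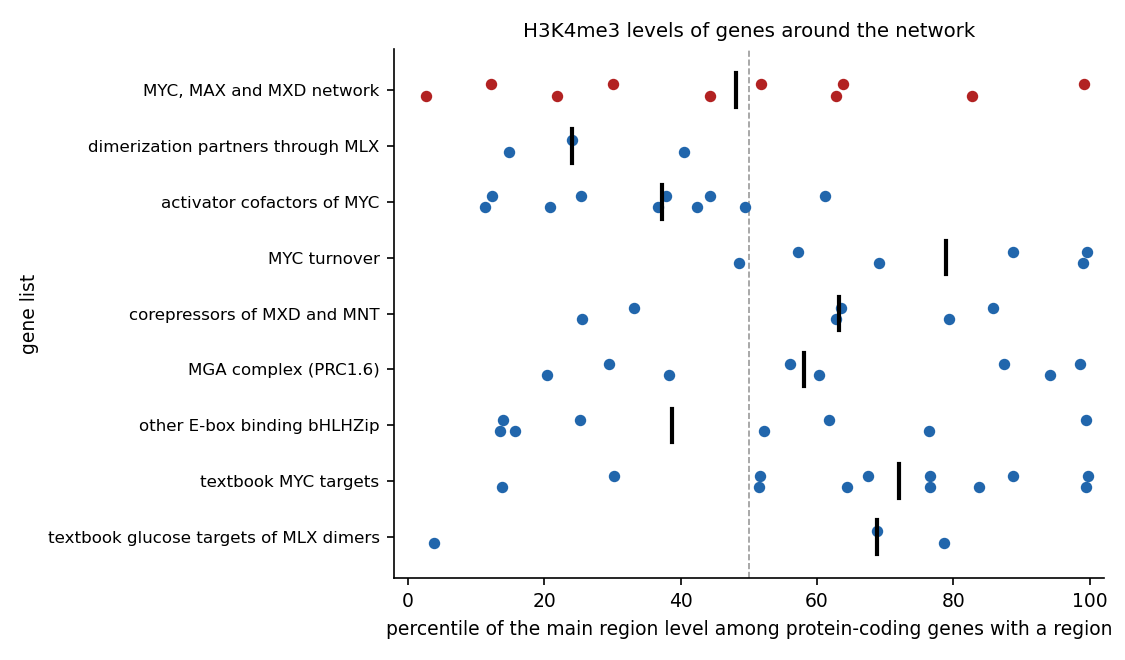
Percentile of the main region level among protein-coding genes with a region, for the 10 network genes (red) and for the genes of the 8 related lists (blue), with the median of each list as a black bar and the median of all genes as a dashed line. The median is 72.0 for the textbook MYC targets and 24.1 for the MLX branch.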

How the data were processed

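The data cover H3K4me3 MINT-ChIP libraries of EndoC-βH3 cells, 4 from each state, and the H3K27me3 and H3K9me3 libraries were not analysed here. Bowtie2 alignment to hg38, samtools, HOMER for the regions and DESeq2 for the normalization were steps of the authors. The deposited signal of a region is the mean normalized count over the samples, as the authors computed it. How regions were merged and reads counted, and whether duplicates were removed, is not given in the sources used here. The other deposited columns hold the authors' own comparison of the states, a fold change with its error and p-values, and were not used, so no test was run. Depth per sample is unknown.

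Regions (97545) were linked to the start sites of protein-coding transcripts of GENCODE release 44 (GRCh38, the build of the files). Coordinates are those of the deposited regions, with width as end minus start. The canonical start is that of the transcript tagged canonical by Ensembl. A percentile is the percent of genes with a region whose value is lower. Base composition came from the hg38 sequence, in 5 classes of about equal size. Motifs were searched on both strands, and no sequence of chromosome 8 was used. All 10 members are named with every promoter region. Of each related list the count with a region, the median percentile, and the 2 highest and 2 lowest genes are given, and of the cell type markers examples. Some genes of these lists are not reported here, and counts and medians cover the others. The members and lists were chosen with earlier results of these data known. Alternatives were the window, the choice of start sites, of region and of scale, and the motif. Protein sequences were not analysed here. The linking and motif search were tested on simulated data. Python 3.11.15 was used with pandas 2.3.3, numpy 2.4.6 and matplotlib 3.10.9.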

Additional observations from a re-analysis of the deposited data

How the results depend on the processing

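No paired analysis was possible because the value used is 1 mean over all samples and no test was run. For the same reason no replicate could be left out, and the precision of each level is unknown. All 10 members had a promoter region with a 5 kb window, with the 5′ end of the gene alone, with basic transcripts and with transcripts of every type (chosen after seeing the data), and 9 had one with a 1 kb window or when the region had to hold a start, since MXD4 then had none. The number of members above the median level was 5, also with summed or distinct regions, a 5 kb window or transcripts of every type. With summed regions MXI1 (percentile 84.1) took the place of MAX (46.9). Among regions wider than 500 bp MAX was at percentile 49.7. The number above the median was 4 with the nearest region or a 1 kb window, and 3 per kb. It was also 3 when the region had to hold a start, an alternative chosen after seeing the data. The last change comes from a higher median (57.2) and from MXD1, whose value was 43.9 in place of 68.5 with a 1 kb window, with the nearest region and with a region that holds a start. Against starts of similar GC content, also chosen after seeing the data, 5 of the 9 members with a value were above the median. The number with CACGTG, 2 in the promoter window, was 4 within 500 bases of the start nearest the centre of the main region (19.2% of all genes) and 5 in the whole main region (32.5% of all genes). It was 8 for CANNTG and 4 for CACGCG or CATGTG. Per kb, the median percentile of MYC turnover moved to 49.4, of corepressors to 44.3, of the MGA complex to 74.0 and of other E-box factors to 52.6. The cause of the shifts per kb was not tested. The other 12 values of the lists' medians stayed within 10 percentile points. Of 48 alternative levels of single members 7 moved by over 1.5 times, and of 39 alternative percentiles 8 moved by over 10 points. A percentile among regions wider than 500 bp could not be given for MXD4.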
